A study of Mus musculus with 4 samples.

Results

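Immediate early genes are genes that a cell transcribes within minutes of a stimulus without first making new protein, and many of them also rise when a tissue is broken up into single cells. The genes described here are 50 such genes, listed by name as AP-1, EGR, NR4A, dual-specificity phosphatase, heat shock and other fast-response genes and found by symbol among the 27179 genes of the expression table. They fall into 11 families by protein type, and all 50 carried enough reads to be among the 14271 genes tested.

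The cells studied were LTi cells (lymphoid tissue inducer), which belong to the innate lymphoid family, respond to cytokines and help build gut lymphoid tissue. They were sorted as live, lineage-negative, CD127+ KLRG1- NK1.1- NKp46- CCR6+ cells from the small intestine lamina propria of C57BL/6 mice. The 2 control libraries came from Gata3+/+ mice and the 2 Gata3-KO libraries from Gata3fl/fl VavCre mice, in which both floxed alleles of the transcription factor gene Gata3 are cut by a Cre recombinase under the Vav promoter. That promoter is active in blood-forming cells as a whole, so the deletion is not limited to LTi cells. The sources used here do not give ages or treatments, or say whether the control mice carried VavCre. The labels do not say whether replicates came from separate mice, so the p-values measure only the spread between these libraries.

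Most genes of this kind are switched on through routes that are already in place in a resting cell. MAP kinases act on serum response factor (SRF), which binds a DNA element called the CArG box, and cyclic AMP or calcium signals act on CREB, which binds the cyclic AMP response element. Heat shock genes answer to another factor, HSF1, when unfolded protein accumulates. The messengers are short-lived, and the products are largely transcription factors, phosphatases that switch the kinases off again, and proteins that degrade messenger RNA. Cells taken out of solid tissue often carry high levels of these RNAs, so levels in a sorted population combine what was present in the tissue with what arose during preparation, and a bulk measurement cannot tell these apart.

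Library totals were 14294708 and 12670034 reads for control replicates 1 and 2 and 24315878 and 23973995 reads for Gata3-KO replicates 1 and 2, and values below are in that order throughout. Levels are in RPKM, reads scaled by gene length and library total, and differences are Gata3-KO minus control on the log2(RPKM + 1) scale, with standard errors (SE) from limma. A gene was called when its Benjamini-Hochberg adjusted p over all 14271 tested genes was under 0.05. In the deposited values the median gene lay 0.43 higher in Gata3-KO. Slc29a3 alone held 17.2% and 27.1% of control reads and 7.87% and 7.61% of Gata3-KO reads, and its part in that shift was not tested. Median-ratio scaling, which sets the typical gene equal across libraries, brought that median to 0.041 and lowered the difference of every highly expressed gene by 0.60, so calls and counts are given on both scales. Gata3 itself was at 84.3 and 50.7 RPKM (control) against 34.5 and 23.3 RPKM (Gata3-KO), a difference of −1.18 that was not called (limma adjusted p = 0.0907) and −1.76 after median-ratio scaling (adjusted p = 0.0796). All 20 LTi marker genes had reads in every library. Markers of other cells differed between the genotypes as well. Of 20 B and plasma cell markers 15 were called higher in Gata3-KO (1 after median-ratio scaling), with summed levels of 3603 and 9292 RPKM (control) against 60900.5 and 22983 RPKM (Gata3-KO). Of 18 epithelial markers 12 were called higher (5 after scaling), with sums of 1263 and 1435 against 2533 and 4350 RPKM. Of 14 tested T cell markers 5 were called higher, with sums of 282 and 179 against 903 and 500.2 RPKM, and 0 after scaling. In control replicate 1 the B cell gene Cr2 and the stem cell gene Lgr5 had no reads, whereas Igha was at 3053 RPKM there. Of 14 tested myeloid, mast and plasmacytoid dendritic cell markers 3 were called higher (1 after scaling), and of 10 ILC1 and NK cell markers 2 were called lower (1 after scaling). Of these 10, only 4 had estimates below 0 on each scale, and their median difference was 0.59 as deposited and 0.25 after scaling. Sums of the ILC1 and NK list were 73.5 and 168 against 355 and 63.7 RPKM, so the Gata3-KO libraries were far apart. Of 6 ILC2 markers 1 was called higher and 2 lower (0 and 1 after scaling), and of 11 stromal markers 0 were called on either scale.

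The 50 genes as a whole were abundant in these cells, though only 9 ranked among the 100 highest in all 4 libraries. Most of the 50 lay lower, relative to other genes, in the Gata3-KO libraries. A minority with the EGR factors, Myc and Dusp2 stood higher. The median level of the 50 was 101 RPKM, against 4.69 RPKM over all tested genes, and 25 of them averaged over 100 RPKM. Together the 50 held 6.71% and 4.66% of control reads and 3.92% and 4.96% of Gata3-KO reads. Junb alone supplied 35.0%, 34.1%, 24.7% and 22.7% of those reads. On the deposited scale 6 of the 50 were called higher, Fosl1, Egr2, Dusp2, Klf6, Klf10 and Myc, and 0 were called lower, where 8.28% of all tested genes were called higher, 0.687% lower and 8.96% in either direction. At an unadjusted p under 0.05, 16 of the 50 passed (32%), beside 30.4% of all tested genes. After median-ratio scaling 0 of the 50 were called in limma, with 25 (50%) at an unadjusted p under 0.05 beside 22.6% of all tested genes, where 0.575% of all tested genes were called higher, 0.434% lower and 1.01% in either direction. The share called higher on the deposited scale, 6 of 50, lies near that of all tested genes.

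The order of the 4 libraries was counted next. After median-ratio scaling both Gata3-KO libraries lay below both control libraries for 28 of the 50 genes (56%), where 25.6% of all tested genes did so. The opposite order was found for 9 of the 50 (18%), where 29.8% of all tested genes had it. Of the 50, 98% had a mean level above the median of all tested genes. No background of similarly abundant genes was used, so the part of abundance in these and later shares was not tested. The lower order was also frequent in some of the other gene lists below. On the deposited scale 11 of the 50 lay lower in this sense (7.57% of all tested genes) and 15 lay higher (53.9%). The median difference of the 50 was 0.075 as deposited and −0.51 once scaled by median ratio, beside 0.43 and 0.041 for all tested genes. Estimates below 0 numbered 23 on the deposited scale and 35 after scaling, and 12 of the 50 changed sign between the scales. Bulk RNA cannot tell fewer cells with a given RNA from less of that RNA per cell. The B cell, T cell and epithelial markers above moved in the direction of the genes that stood higher, and the LTi markers (2 of 20 called lower, Cd4 and Il22, with sums of 5851, 4064, 2325 and 2831 RPKM) in that of the genes that stood lower. Their part in either was not tested.

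**Figure D1:**
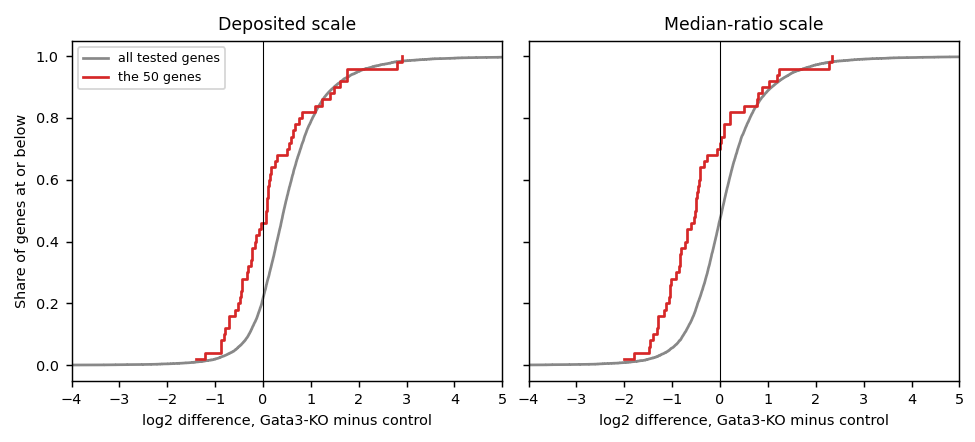
Cumulative share of genes (vertical axis) at or below each log2 difference between Gata3-KO and control libraries (horizontal axis), for all 14271 tested genes in grey and the 50 genes in red, as deposited (left) and after median-ratio scaling (right). The red line lies to the left of the grey line over most of its course, with medians of 0.075 against 0.43 on the left and −0.51 against 0.041 on the right, and meets it at the upper end, where Dusp2 and Myc lie.

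AP-1 is a dimer of a FOS with a JUN protein and a standard early driver of lymphocyte activation genes. Junb was by far its most abundant RNA in these LTi cells. After median-ratio scaling 6 of the 7 members lay lower in both Gata3-KO libraries (25.6% of all tested genes) and 1, Fosl1, higher (29.8%). Junb stood at 12766 and 8626 RPKM (control) against 5264 and 6123 RPKM (Gata3-KO), which ranked it 4th and 5th among all genes of the control libraries and 15th and 9th among those of the Gata3-KO libraries. Both Gata3-KO values were below both control values, with a difference of −0.89 ± 0.41 (SE) that was not called (limma adjusted p = 0.204) and of −1.48 ± 0.28 (SE) after median-ratio scaling (adjusted p = 0.0792). Of the summed RPKM of the 7 AP-1 genes, Junb made up 79.0%, 75.4%, 67.6% and 62.4%. Fos, whose product dimerises with JUN proteins, took 9.61%, 12.8%, 14.0% and 18.9%, and Jun 7.52%, 7.55%, 12.7% and 11.6%, so that both had larger shares in each Gata3-KO library. Fos was at 1554 and 1469 RPKM (control) against 1089.9 and 1848 RPKM (Gata3-KO), and the genotypes overlapped, since Gata3-KO replicate 2 held the highest value and replicate 1 the lowest. Jun was at 1216 and 864 RPKM (control) against 992 and 1139 RPKM (Gata3-KO), again with overlap. After median-ratio scaling both lay lower in Gata3-KO, by −0.69 and −0.54, and neither was called.

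Fosl1, which encodes FRA-1, was the AP-1 gene that rose, from a low level. Its values were 6.48 and 4.31 RPKM (control) against 17.3 and 24.0 RPKM (Gata3-KO), so that both Gata3-KO libraries were above both control libraries. Means were 5.39 ± 1.54 RPKM in control and 20.7 ± 4.72 RPKM in Gata3-KO libraries (SD, n = 2), a 3.83-fold ratio, and the difference was 1.76 ± 0.33 (SE) (limma adjusted p = 0.0344) and 1.23 ± 0.28 (SE) after median-ratio scaling (not called, adjusted p = 0.0973). Its relative Fosl2, which encodes FRA-2, had the opposite order at 176 and 101 RPKM (control) against 63.0 and 82.5 RPKM (Gata3-KO), a difference of −0.88 and, after scaling, of −1.47 ± 0.29 (SE), not called on either scale. Fosb was at 427 and 353 RPKM (control) against 341 and 563 RPKM (Gata3-KO) and Jund, the JUN gene that resting cells keep switched on, at 23.4 and 24.4 RPKM (control) against 20.2 and 26.8 RPKM (Gata3-KO). Both overlapped on the deposited scale and lay lower in Gata3-KO after scaling, by −0.42 and −0.61. Other bZIP genes, of the AP-1, ATF, CREB and MAF groups, numbered 19, and 0 of them were called on either scale, with 2 at an unadjusted p under 0.05 in limma as deposited and 4 after scaling. Their median differences were 0.35 and −0.20. After scaling 9 of the 19 (47.4%) lay lower in both Gata3-KO libraries and 0 higher. Fosl1 lies at chr19:5447698-5455938 and Junb at chr8:84976909-84978748 of GRCm38.p6, the build of all positions given here.

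**Figure D2:**
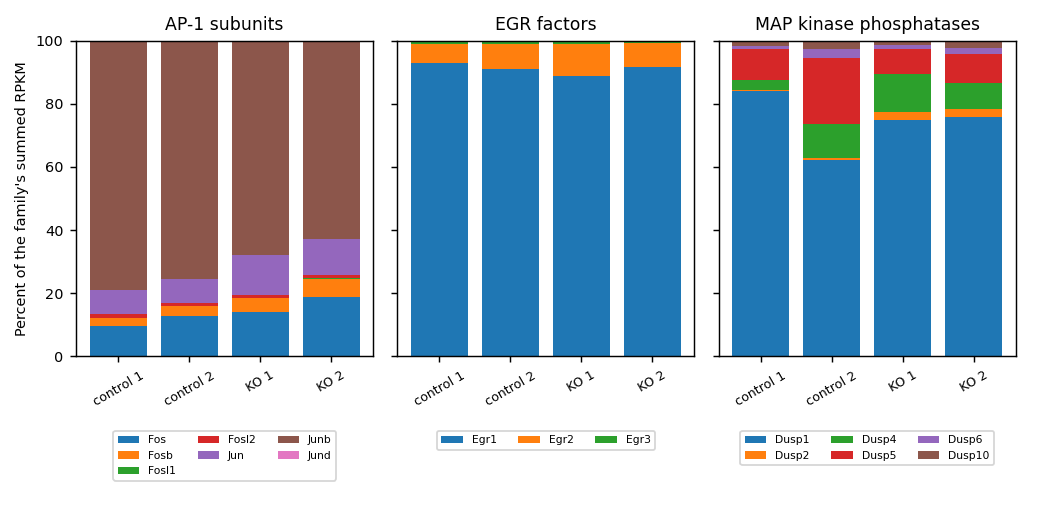
Share of the summed RPKM of the AP-1, EGR and MAP kinase phosphatase families held by each member (vertical axis, percent) in each of the 4 libraries (horizontal axis, KO for Gata3-KO). Junb is the largest part of the AP-1 sum in all 4 libraries at 79.0% and 75.4% in control and 67.6% and 62.4% in Gata3-KO libraries, whereas Egr1 keeps between 88.8% and 93.0% of the EGR sum.

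EGR factors are zinc finger proteins induced through MAP kinase and SRF, and in lymphocytes they follow antigen receptor and other kinase signals. All 3 measured members stood higher in both Gata3-KO libraries than in both control libraries, on either scale. Of all tested genes 53.9% had that order as deposited and 29.8% after median-ratio scaling. Egr2 was called on the deposited scale. The summed level of the 3 members was 190.5 and 285 RPKM (control) against 532.5 and 829.8 RPKM (Gata3-KO). Egr1, the most abundant, was at 177 and 259.9 RPKM (control) against 473 and 762 RPKM (Gata3-KO). Its difference was 1.48 ± 0.38 (SE), which missed the threshold (limma adjusted p = 0.0608), and 0.88 ± 0.35 (SE) after median-ratio scaling (adjusted p = 0.225). Egr2, which restrains lymphocyte activation, rose from 11.6 and 22.6 to 54.0 and 61.1 RPKM, with means of 17.1 ± 7.81 RPKM in control and 57.5 ± 5.06 RPKM in Gata3-KO libraries (SD, n = 2). The 3.36-fold ratio gave a difference of 1.76 ± 0.36 (SE) (limma adjusted p = 0.0401), and 1.18 ± 0.39 (SE) after median-ratio scaling, not called (adjusted p = 0.176). The control libraries were apart, and the difference was 1.31 without control replicate 1 and 2.22 without control replicate 2. Egr3 was at 1.68 and 2.62 RPKM (control) against 5.69 and 7.01 RPKM (Gata3-KO), a difference of 1.23 (not called, limma adjusted p = 0.0732) and 0.77 after scaling. Egr1 held between 88.8% and 93.0% of the family sum in every library. Egr2 lies at chr10:67534469-67542188.

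Of the 50 genes, 39 have a promoter entry in RefSeq (GRCm38.p6), covering 250 bases before to 50 after each listed start. A CArG box (CC, then 6 A or T, then GG, either strand) was found in 4 of these 39, Egr2, Srf, Dusp5 and Zfp36, a share of 10.3% beside 1.66% of the 10688 tested genes with an entry and 1.63% of all 32851 promoters. These are printed because they carry the element through which MAP kinase and SRF act, on genes from 4 families whose values differ. Capitals mark the CArG boxes, and all are 5′ to 3′ on the strand of the gene. Where the surrounding bases are annotated as exon of another transcript (Srf, Dusp5 and Zfp36), 30 bases are given.
Egr2 (start 3 of 5 listed), chr10:67537749-67537868, plus strand: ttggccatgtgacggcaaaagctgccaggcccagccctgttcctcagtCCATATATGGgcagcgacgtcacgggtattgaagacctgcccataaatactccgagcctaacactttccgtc
Srf, chr17:46556215-46556244, minus strand: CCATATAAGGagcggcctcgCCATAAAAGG
Dusp5, chr19:53529058-53529087, plus strand: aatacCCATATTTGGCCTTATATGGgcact
Zfp36, chr7:28379267-28379296, minus strand: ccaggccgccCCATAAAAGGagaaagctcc
The box of Egr2 begins 72 bases before the start, the pairs of Srf and Dusp5 each begin 82 bases before it, and that of Zfp36 begins 58 bases before it. The 4 genes that share the element had estimates of either sign on the deposited scale. Egr2 was called higher, Zfp36 and Srf had estimates of 1.09 and 0.76, and Dusp5 had −0.70, none of the last 3 called. Egr1, Egr3, Fosl1, Myc and Klf10 are among the 11 genes with no entry.

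The NR4A receptors are orphan nuclear receptors induced by calcium and cyclic AMP signals, and Nr4a1 (Nur77) is a common read-out of antigen receptor signalling in T and B cells. All 3 lay lower in both Gata3-KO libraries after median-ratio scaling, an order that 25.6% of all tested genes had, and none was called. Nr4a1 was at 3495 and 2333 RPKM (control) against 1527 and 2559 RPKM (Gata3-KO), with overlap, as Gata3-KO replicate 2 exceeded control replicate 2. Its difference was −0.53 ± 0.43 (SE) and, after scaling, −1.13 ± 0.33 (SE) (limma adjusted p = 0.141), when both Gata3-KO libraries were below both controls. Nr4a3 was at 285 and 217 RPKM (control) against 125 and 91.6 RPKM (Gata3-KO), with no overlap on either scale. It came nearest to the threshold, with a difference of −1.21 ± 0.31 (SE) (limma adjusted p = 0.0624) and −1.80 ± 0.28 (SE) after scaling (adjusted p = 0.0604). Nr4a2 was at 208 and 179 RPKM (control) against 153 and 173 RPKM (Gata3-KO), the narrowest gap of the 3, and differed by −0.24 and −0.84. Nr4a1 held 87.6%, 85.5%, 84.6% and 90.6% of the family sum, and the share of Nr4a3 was 7.15%, 7.95%, 6.90% and 3.24%.

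**Figure D3:**
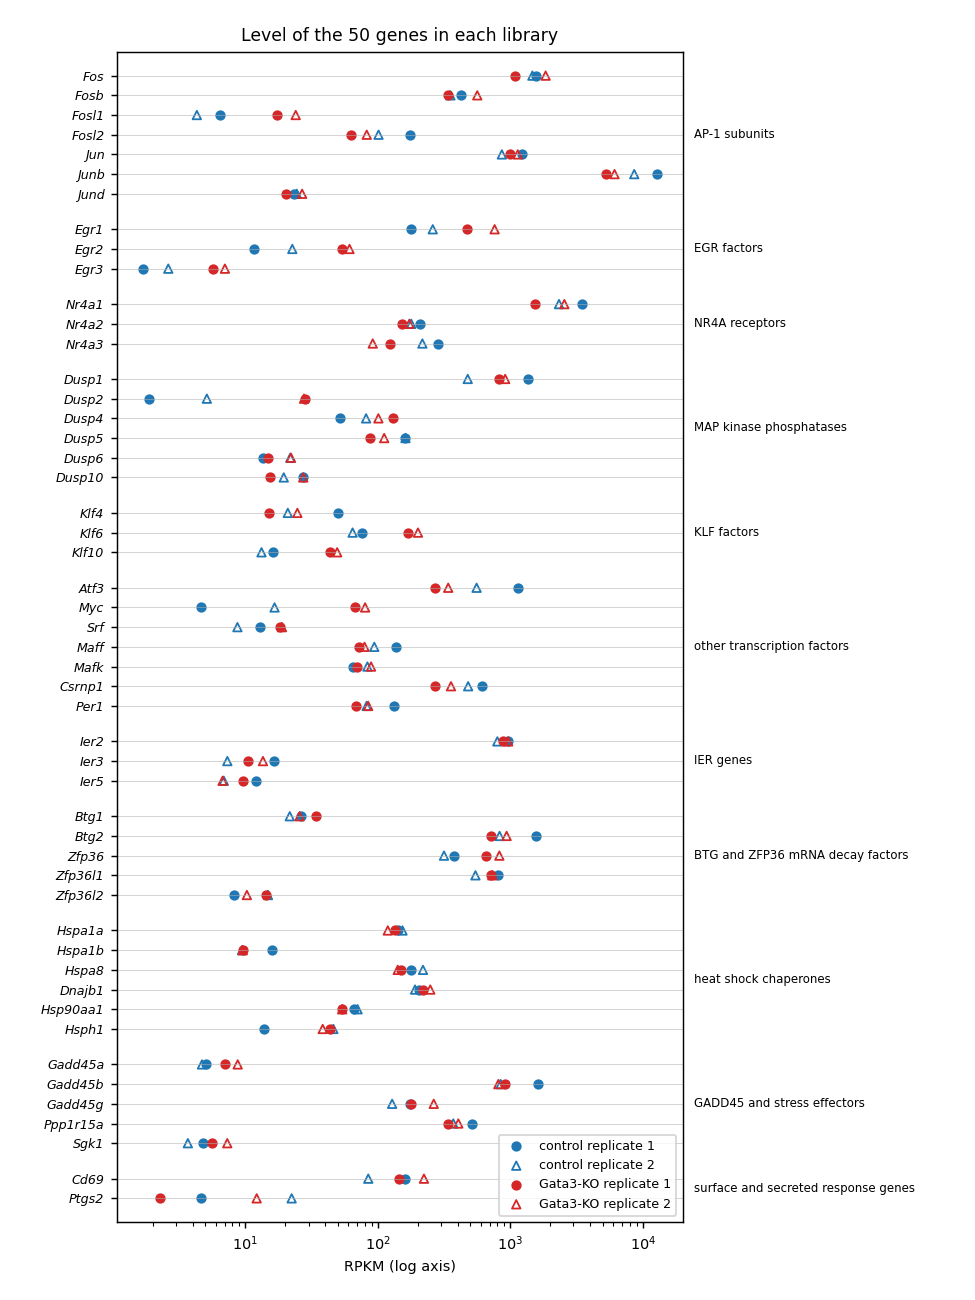
Level of each of the 50 genes (rows, grouped by family) in the 4 libraries, in RPKM on a log axis, with control libraries and Gata3-KO libraries as separate symbols. Junb is highest in all 4 libraries, and Dusp2, Myc, Egr2 and Klf10 show both Gata3-KO points to the right of both control points.

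Dual-specificity phosphatases take phosphate off MAP kinases and end the signal that induced them. Dusp2 was called higher, and after median-ratio scaling Dusp5 and Dusp10 lay lower in both Gata3-KO libraries without a call. Dusp2 (PAC-1), a nuclear phosphatase typical of activated lymphocytes, was at 1.86 and 5.12 RPKM (control) against 28.3 and 27.7 RPKM (Gata3-KO). Both Gata3-KO values were far above both control values, and the control values were themselves apart. The means of 3.49 ± 2.31 RPKM in control and 28.0 ± 0.371 RPKM in Gata3-KO libraries (SD, n = 2) gave an 8.02-fold ratio and a difference of 2.79 ± 0.42 (SE) (limma adjusted p = 0.0225), with 2.27 ± 0.47 (SE) after median-ratio scaling, which was not called (adjusted p = 0.0842). Without control replicate 1 the difference was 2.24, and without control replicate 2 it was 3.34. Dusp1, the most abundant phosphatase of the 6, was at 1349 and 477 RPKM (control) against 824 and 915 RPKM (Gata3-KO), where control replicates 1 and 2 held the highest and the lowest value. Dusp5, which acts on ERK in the nucleus, was at 159 and 162 RPKM (control) against 86.8 and 112 RPKM (Gata3-KO), lower in both Gata3-KO libraries. Its difference was −0.70 ± 0.28 (SE) (limma adjusted p = 0.153) and −1.29 ± 0.21 (SE) after scaling (adjusted p = 0.0647). Dusp4, a nuclear phosphatase like Dusp2, was at 52.2 and 81.6 RPKM (control) against 131 and 101 RPKM (Gata3-KO), above both controls on the deposited scale by 0.81 and overlapping after scaling (0.22). Dusp10, which acts on JNK and p38, was at 27.3 and 19.5 RPKM (control) against 15.5 and 27.4 RPKM (Gata3-KO), a difference of −0.73 after scaling with both Gata3-KO libraries lower. Dusp6, the cytoplasmic ERK phosphatase, was at 13.5 and 21.8 RPKM (control) against 14.9 and 22.1 RPKM (Gata3-KO) with overlap on both scales.

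The promoter of Dusp2 is shown because Dusp2 had the largest ratio of means of the 50 genes and because it holds a match to GCGNGGGCG, the EGR motif, in capitals.
Dusp2, chr2:127336039-127336158, plus strand: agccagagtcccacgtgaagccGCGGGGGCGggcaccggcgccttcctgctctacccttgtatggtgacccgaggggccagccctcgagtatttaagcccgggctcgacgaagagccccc
The match begins 98 bases before the start. The motif, searched on both strands, was present in 12 of the 39 promoters (30.8%), beside 11.6% of tested genes and 5.55% of all promoters. A match is a description of the letters and says nothing about binding in these cells.

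MAP kinase feedback inhibitors outside the 50 genes, other phosphatases with the Sprouty and Spred proteins, numbered 10, of which 3 were called higher on the deposited scale and 0 after scaling, with 5 at an unadjusted p under 0.05 in limma on each scale. Spry1, an inhibitor of receptor tyrosine kinase signalling, was at 1.57 and 2.28 RPKM (control) against 19.4 and 16.8 RPKM (Gata3-KO), a difference of 2.71 (limma adjusted p = 0.0159) and 2.23 after scaling (adjusted p = 0.0575). Dusp3, a small phosphatase of ERK and JNK, was at 2.25 and 3.25 RPKM (control) against 9.90 and 13.4 RPKM (Gata3-KO) (1.75, adjusted p = 0.0349 in limma, and 1.25 after scaling, not called, adjusted p = 0.115). Dusp22 was at 0.379 and 0.741 RPKM (control) against 3.60 and 3.09 RPKM (Gata3-KO) (1.48, adjusted p = 0.0462 in limma, and 1.14 after scaling, not called, adjusted p = 0.133). These 3 stood higher in both Gata3-KO libraries. After scaling 5 of the 10 inhibitors stood higher in both Gata3-KO libraries and 1 lower.

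Klf6 and Klf10 rose on the deposited scale, and Klf4 was not called. KLF proteins are zinc finger factors that bind GC-rich promoters, and Klf10 is known as an early target of TGF-beta. Klf6 was at 75.6 and 64.5 RPKM (control) against 170.2 and 201 RPKM (Gata3-KO). Both Gata3-KO libraries were well above both control libraries. The means were 70.1 ± 7.85 RPKM in control and 186 ± 21.8 RPKM in Gata3-KO libraries (SD, n = 2), the ratio 2.65-fold and the difference 1.39 ± 0.27 (SE) (limma adjusted p = 0.0358), against 0.80 ± 0.20 (SE) after median-ratio scaling (not called, adjusted p = 0.109). Klf10 was at 16.1 and 13.2 RPKM (control) against 43.4 and 49.3 RPKM (Gata3-KO), and its replicates lay close together in each genotype. Its means of 14.7 ± 2.02 RPKM in control and 46.4 ± 4.16 RPKM in Gata3-KO libraries (SD, n = 2) gave a 3.16-fold ratio and a difference of 1.60 ± 0.27 (SE) (limma adjusted p = 0.0279), and 1.03 ± 0.21 (SE) after scaling (adjusted p = 0.0827). Klf4, which epithelial and myeloid cells also use, was at 50.1 and 20.9 RPKM (control) against 15.2 and 24.7 RPKM (Gata3-KO). It overlapped on the deposited scale (−0.71) and lay lower in both Gata3-KO libraries after scaling (−1.29). Within the family, Klf4 made up 35.3% and 21.2% of the control sum and 6.64% and 8.98% of the Gata3-KO sum. Klf6 lies at chr13:5861489-5870393 and Klf10 at chr15:38291464-38300711.

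Among the other transcription factors, Myc rose on the deposited scale while Atf3 and Csrnp1 lay lower in both Gata3-KO libraries. Myc drives growth and ribosome production and is an early target of cytokine and antigen receptor signals. Its values were 4.67 and 16.6 RPKM (control) against 67.3 and 80.2 RPKM (Gata3-KO), so that the Gata3-KO libraries lay close together and the control libraries were far apart. The means of 10.6 ± 8.45 RPKM in control and 73.7 ± 9.12 RPKM in Gata3-KO libraries (SD, n = 2) gave a 6.93-fold ratio and a difference of 2.90 ± 0.55 (SE) (limma adjusted p = 0.0361). After median-ratio scaling the difference was 2.33 ± 0.61 (SE), not called (adjusted p = 0.119), and Myc lies at chr15:61985341-61990361. Its size depended on the control libraries: the difference was 2.08 without control replicate 1 and 3.72 without control replicate 2, and on the median-ratio scale 1.42 and 3.24. The last of these was the only value for any of the 50 genes that passed the threshold with a library left out (limma adjusted p = 0.0444).

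Atf3, a bZIP factor of the integrated stress response, was at 1147 and 557 RPKM (control) against 268 and 340.0 RPKM (Gata3-KO). Every Gata3-KO value was below every control value, and the difference of −1.40 ± 0.42 (SE) was not called (limma adjusted p = 0.0895), nor was the −2.00 ± 0.35 (SE) after scaling (adjusted p = 0.0705), the lowest estimate of the 50. Csrnp1, a nuclear protein induced by AXIN1 and cytokines, was at 616 and 481 RPKM (control) against 272 and 357 RPKM (Gata3-KO) and differed by −0.80 and −1.40. Maff, a small MAF protein, was at 136 and 94.1 RPKM (control) against 72.0 and 79.4 RPKM (Gata3-KO) and differed by −0.58 and −1.17. Mafk, another small MAF, was at 65.0 and 83.5 RPKM (control) against 69.6 and 88.9 RPKM (Gata3-KO), and Per1, a clock gene induced by CREB, at 133 and 82.3 RPKM (control) against 68.5 and 84.6 RPKM (Gata3-KO). These 2 overlapped on the deposited scale and lay lower after scaling, by −0.50 and −1.05. Srf, the factor that binds the CArG box and whose own promoter holds a pair of them, was at 12.9 and 8.72 RPKM (control) against 18.3 and 18.9 RPKM (Gata3-KO), higher in both Gata3-KO libraries on the deposited scale (0.76, not called) and overlapping after scaling (0.20).

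The IER genes are small immediate early response genes, of which Ier2 was the main RNA here. Ier2 was at 957 and 799 RPKM (control) against 883 and 964 RPKM (Gata3-KO) and made up at least 97.1% of the family sum in each library. Genotypes overlapped on the deposited scale (0.077), and both Gata3-KO libraries were lower after median-ratio scaling (−0.52). Ier3, a survival gene induced by NF-kB, was at 16.4 and 7.31 RPKM (control) against 10.5 and 13.6 RPKM (Gata3-KO), with overlap on both scales. Ier5, which assists HSF1, was at 12.1 and 6.88 RPKM (control) against 9.63 and 6.74 RPKM (Gata3-KO), lower in both Gata3-KO libraries only after scaling (−0.70). None of the 3 was called.

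The BTG and ZFP36 proteins shorten the poly(A) tails of messenger RNA, those of the ZFP36 group at AU-rich elements that many immediate early RNAs contain. Zfp36 (tristetraprolin) stood higher in Gata3-KO, and Btg2 lower after scaling. Zfp36 was at 378 and 316 RPKM (control) against 658 and 827 RPKM (Gata3-KO), with no overlap on either scale and a difference of 1.09 ± 0.31 (SE) that was not called (limma adjusted p = 0.0783), and 0.50 ± 0.22 (SE) after scaling (adjusted p = 0.26). Btg2, a p53 target that slows division, was at 1551 and 829.8 RPKM (control) against 714 and 938 RPKM (Gata3-KO), a difference of −0.47 with overlap and of −1.07 after scaling without it. Of the family sum Btg2 held 56.1% and 48.0% in control and 33.4% and 37.0% in Gata3-KO libraries, and Zfp36 13.7% and 18.3% against 30.7% and 32.7%. Zfp36l1, a close relative of Zfp36, was at 801 and 546 RPKM (control) against 721 and 732 RPKM (Gata3-KO) and differed by −0.46 after scaling. Btg1 at 26.3 and 21.6 RPKM (control) against 33.9 and 25.7 RPKM (Gata3-KO) and Zfp36l2 at 8.19 and 14.8 RPKM (control) against 14.4 and 10.3 RPKM (Gata3-KO) overlapped on both scales. Of 14 tested genes of the decay machinery (CCR4-NOT, PAN and decapping subunits, TOB proteins and Elavl1) 0 were called on either scale, with 1 at an unadjusted p under 0.05 in limma on the deposited scale and 4 after scaling. Their median difference was 0.028 and, after scaling, −0.52, close to the −0.51 of the 50 genes. After scaling 8 of the 14 (57.1%) lay lower in both Gata3-KO libraries and 0 higher. The lower order was thus not particular to the 50 genes.

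Heat shock chaperones refold damaged protein, and the inducible HSP70 genes Hspa1a and Hspa1b are the classical mark of heat or proteotoxic stress. On the deposited scale the 6 differences lay between −0.44 and 0.67, and 0 of the 6 members were called on either scale. Hspa1a was at 141 and 154 RPKM (control) against 134 and 119 RPKM (Gata3-KO), a difference of −0.22 and, after scaling, of −0.81. Hspa8, the HSP70 made in unstressed cells, was at 178 and 219 RPKM (control) against 148 and 141 RPKM (Gata3-KO), lower in both Gata3-KO libraries by −0.44 and, after scaling, by −1.04. Hsp90aa1, the inducible HSP90, was at 65.6 and 70.4 RPKM (control) against 53.8 and 53.8 RPKM (Gata3-KO), with Gata3-KO again below control (−0.33 and −0.92). Dnajb1, the HSP40 partner of HSP70, was at 203 and 191 RPKM (control) against 221 and 249 RPKM (Gata3-KO) and reversed its order with the scale, from higher in both Gata3-KO libraries (0.25) to lower in both (−0.35). Hsph1 (HSP110), which reloads HSP70, was at 13.8 and 46.2 RPKM (control) against 43.9 and 38.4 RPKM (Gata3-KO), where control replicate 1 alone was low and the genotypes overlapped. After scaling 5 of the 6 lay lower in both Gata3-KO libraries, beside 25.6% of all tested genes. Of 29 other genes of the HSF1 and chaperone network 0 were called on either scale, with 5 at an unadjusted p under 0.05 in limma on each scale. After scaling 17 of the 29 (58.6%) lay lower in both Gata3-KO libraries and 4 (13.8%) higher, beside 25.6% and 29.8% of all tested genes.

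Hspa1b was listed at 15.9 and 9.44 RPKM (control) against 9.67 and 9.56 RPKM (Gata3-KO), lower in both Gata3-KO libraries after scaling (−0.87). Hspa1a and Hspa1b are near-identical neighbours, so reads that match both could be split or dropped by the counting, and the level of each is uncertain. Their promoters show how alike they are, with 247 of 250 bases before the start identical (98.8%), and each holds a GAANNTTC pair, the core of the heat shock element, in capitals.
Hspa1a, chr17:34972157-34972276, minus strand: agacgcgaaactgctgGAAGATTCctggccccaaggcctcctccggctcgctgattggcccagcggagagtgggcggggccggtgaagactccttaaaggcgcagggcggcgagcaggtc
Hspa1b, chr17:34959239-34959358, minus strand: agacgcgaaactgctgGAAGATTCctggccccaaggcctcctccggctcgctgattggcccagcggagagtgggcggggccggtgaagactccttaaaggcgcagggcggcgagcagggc
The match begins 104 bases before the start in both. It was found in 6 of the 39 promoters (15.4%), beside 6.90% of tested genes and 7.86% of all promoters, namely those of Hspa1a, Hspa1b, Hsph1, Jun, Fosl2 and Sgk1. With a further GAA required 2 bases on, 1 of the 39 held it, beside 0.524% of tested genes.

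The GADD45 proteins bind kinases upstream of p38 and JNK and cell cycle regulators, and Gadd45b is the form most tied to NF-kB and cytokine signals in lymphocytes. It was the most abundant of the stress effectors at 1609.5 and 846 RPKM (control) against 914 and 813 RPKM (Gata3-KO), where control replicate 1 stood above all the others. The genotypes overlapped on the deposited scale (−0.44) and were apart after scaling (−1.03), without a call. Ppp1r15a (GADD34), which restores translation by directing a phosphatase to eIF2-alpha, was at 512 and 371 RPKM (control) against 339.6 and 405 RPKM (Gata3-KO) and differed by −0.83 after scaling with both Gata3-KO libraries lower. Gadd45a at 5.09 and 4.71 RPKM (control) against 7.02 and 8.76 RPKM (Gata3-KO), Gadd45g at 174 and 128 RPKM (control) against 178 and 264 RPKM (Gata3-KO) and the kinase gene Sgk1 at 4.81 and 3.68 RPKM (control) against 5.57 and 7.30 RPKM (Gata3-KO) stood higher in both Gata3-KO libraries on the deposited scale only. Their differences after scaling were 0.072, −0.058 and 0.0020. Of 14 integrated stress response genes 1 was called, Ddit4 (REDD1), an inhibitor of mTORC1. Ddit4 was at 32.6 and 30.8 RPKM (control) against 87.2 and 89.9 RPKM (Gata3-KO) (1.45, limma adjusted p = 0.0291). After scaling 0 of the 14 were called (Ddit4 0.87, limma adjusted p = 0.0978), with 2 at an unadjusted p under 0.05. On that scale 3 of the 14 lay lower in both Gata3-KO libraries and 5 higher.

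Cd69 and Ptgs2 encode response proteins outside the nucleus. Cd69, the early activation receptor that keeps lymphocytes in tissue, was at 160.4 and 84.7 RPKM (control) against 145 and 223 RPKM (Gata3-KO), with overlap on both scales (0.62 and 0.027). Ptgs2, the inducible cyclooxygenase, was at 4.64 and 22.4 RPKM (control) against 2.27 and 12.2 RPKM (Gata3-KO). In both genotypes replicate 2 was far above replicate 1, so the genotypes overlapped, and its SE of 0.98 was the largest of the 50.

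**Figure D4:**
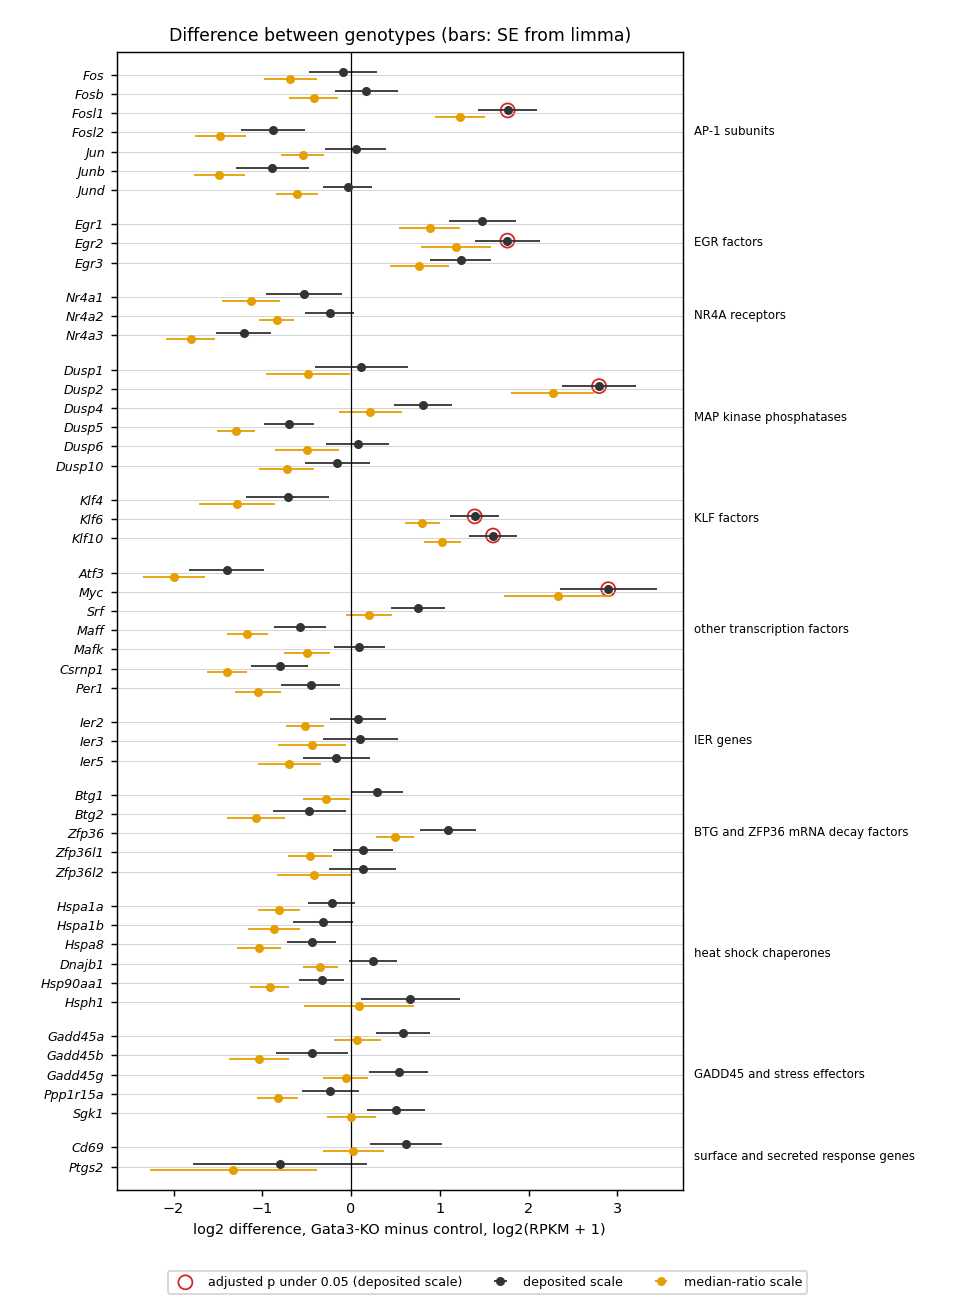
Difference between Gata3-KO and control (horizontal axis, log2(RPKM + 1)) for each of the 50 genes by family, with bars for the SE from limma, in black as deposited and in orange after median-ratio scaling. Red circles mark the 6 genes called on the deposited scale. The orange points lie left of the black points throughout, and those of the EGR factors, Fosl1, Dusp2, Klf6, Klf10, Myc and Zfp36 lie right of 0 by more than their SE.

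Immediate early and primary response genes outside the 50 numbered 41. Of 39 tested, 5 were called higher on the deposited scale (Arc, Ccn1, Id1, Trib1 and Npas4) and 1 lower (Rgs2). After scaling 0 were called higher and Rgs2 stayed lower. At an unadjusted p under 0.05 in limma 13 of the 39 passed on the deposited scale, beside 30.4% of all tested genes. After scaling 24 of the 39 passed, beside 22.6% of all tested genes. The median difference of the 39 was −0.16 and, after scaling, −0.75. After scaling 24 of them (61.5%) lay lower in both Gata3-KO libraries and 10 (25.6%) higher. Of all tested genes 25.6% lay lower and 29.8% higher in this sense. Arc, a synaptic and immune cell immediate early gene, was at 8.49 and 8.44 RPKM (control) against 67.7 and 51.1 RPKM (Gata3-KO) (2.66, limma adjusted p = 0.0129). Ccn1 (CYR61), an SRF and YAP target, was at 19.3 and 31.3 RPKM (control) against 145 and 165 RPKM (Gata3-KO) (2.60, limma adjusted p = 0.0176). Id1, a BMP target, rose from 11.0 and 9.70 to 34.7 and 55.4 RPKM (1.99, limma adjusted p = 0.0256), and Trib1, a pseudokinase gene, from 18.6 and 16.3 to 55.1 and 50.9 (1.55, limma adjusted p = 0.0278). These 4 stood higher in both Gata3-KO libraries, and after scaling their differences were 2.10, 2.02, 1.42 and 0.97, none called (limma adjusted p = 0.051 in Arc to 0.0931 in Trib1). Npas4 had no reads in either control library and 1.66 and 1.22 RPKM in Gata3-KO. It passed the filter through the Gata3-KO libraries alone, so it could only stand higher, and its call is no evidence of a direction. Rgs2, a GTPase activator that damps G protein signals, was at 195 and 157 RPKM (control) against 74.5 and 61.1 RPKM (Gata3-KO). It fell by 1.36 (limma adjusted p = 0.0402) and, after scaling, by 1.95 (adjusted p = 0.048), and was not called with any 1 library left out (−1.52 to −1.21 on the deposited scale). Npas4 and Rgs2 were singled out after their values were seen.

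Replicates of a genotype were compared on the same genes. On the median-ratio scale control replicate 1 was above control replicate 2 for 31 of the 50 (62%, beside 49.7% of all tested genes), and Gata3-KO replicate 1 was above replicate 2 for 15 (30%, beside 49.3%). The median size of the difference between replicates was 0.40 in control and 0.22 in Gata3-KO, beside 0.38 and 0.27 for all tested genes. In the Gata3-KO pair 0 of the 7 AP-1 genes and 0 of the 3 EGR genes were higher in replicate 1, whereas in the control pair 5 of the 7 AP-1 genes and 0 of the 3 EGR genes were.

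Gene length and promoter letters, which the list did not use, were counted as well. Their median span on the chromosome was 5318 bases, beside 20595.5 for the tested genes, with a median exonic length of 2797.5 beside 2610.0 bases. TATAAA was found in 10 of the 39 promoters (25.6%, beside 9.57% of tested genes) and the cyclic AMP response element TGACGTCA in 4 (10.3%, beside 3.50%), those of Dusp1, Maff, Btg2 and Ppp1r15a. The AP-1 motif TGANTCA was found in 2 (5.13%, beside 6.73%), those of Csrnp1 and Zfp36l1. All motifs were searched on both strands, and genes with several listed starts count once if any start holds the motif. The letters TATAAA can fall inside a CArG box, and no other pair of these motifs can contain one another. Over genes with a single listed start the shares were 28.1% beside 8.18% for TATAAA, 34.4% beside 9.98% for the EGR motif and 9.38% beside 1.37% for the CArG box. Of the 4 genes with TGACGTCA the differences after scaling were −1.17 in Maff, −1.07 in Btg2, −0.83 in Ppp1r15a and −0.48 in Dusp1, and 0 were called.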

How the data were processed

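Per the labels' protocols, RNA of the sorted cells was purified on Qiagen miRNeasy Micro columns and turned into full-length cDNA libraries by Smart-seq2, which has no molecular identifiers. Subread, featureCounts and the build mm10 are named in the submitters' processing notes. Their versions, the annotation used and how reads with several matching places were treated are unknown. The table deposited by the authors holds log2(RPKM + 1), raised by 0.0001, as its own values show.

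Whole reads were recovered from the RPKM steps, within 0.001 reads, for 99.3% to 99.6% of each library total, with gene lengths chosen to make them whole. Depth, filter and scaling rest on these reads. A floor of 3 reads was 0.123 to 0.237 CPM, for counting error alone. The test covered genes reaching 0.5 CPM in 2 libraries and 15 reads in sum. Genotypes were compared two-sided in limma 3.58.1 (R 4.3.3) with its trend and robust options on log2(RPKM + 1), a scale that understates changes of low genes, and again after median-ratio scaling. The table writes symbols in capitals, so members were matched without regard to case and joined by Entrez number to RefSeq (GRCm38.p6).

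The 50 genes, the pathway and marker lists and the tests were chosen with earlier results of these data known. Each member was named. Other genes were named as Gata3, as up to 4 called genes per pathway list by adjusted p, and as cell type markers. Results of 1 further pathway list are not reported here. Values in every library were set for called members, for the 37 of the 50 whose genotypes did not overlap after scaling and for the 2 most abundant of each family, and are given for the rest as well.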

Additional observations from a re-analysis of the deposited data

How the results depend on the processing

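The 6 genes called higher (Fosl1, Egr2, Dusp2, Klf6, Klf10 and Myc) kept their direction under all 17 alternatives, and none stayed called in every one. Over all tested genes 1279 were called, with 144 after median-ratio scaling, 166 after upper-quartile scaling, 847 with a pseudocount of 0.1 RPKM, 0 without a filter on low values (4336 at an unadjusted p under 0.05 of 19047 tested), 271 in limma-voom on recovered reads and 94 with median-ratio scaling added. Of the 50 genes 6 were called, with 0 after median-ratio scaling, 0 after upper-quartile scaling, 0 without a filter and 0 in limma-voom with median-ratio scaling, at 25, 25, 13 and 30 unadjusted p-values under 0.05 in limma (3223, 3209, 4336 and 3042 over all genes). A filter at 5 CPM added Egr1, Egr3 and Nr4a3 to the 6, limma-voom on recovered reads lost Fosl1 and Egr2 (4 called), and the pseudocount of 0.1 RPKM lost Egr2 and Myc (4 called). Leaving out 1 library gave 0 to 82 calls over all genes (1599 to 3813 unadjusted) and 0 to 1 among the 50 (6 to 30 unadjusted), the 1 being Myc without control replicate 2 after median-ratio scaling. With 1 library left the lone sample was assumed to vary like the others. The cause of these losses was not tested.

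Deviations of same-numbered libraries correlated at r = −0.021 over 14271 genes, so no pairing by replicate number was seen. With so few libraries this cannot exclude that same-numbered ones were prepared together. With the replicate block, number as a term of the model, 1061 genes and 5 of the 50 were called (Klf6 lost, adjusted p = 0.0760 in limma), and the replicate block with median-ratio scaling called 26 genes and 0 of the 50, with 26 at an unadjusted p under 0.05.

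Pathway list calls after median-ratio scaling were 1 in place of 6 for other immediate early genes, 0 in place of 3 for the feedback inhibitors and 0 in place of 1 for the integrated stress response. The called genes named from these lists kept their direction under the same alternatives, chosen for them after seeing the data. Npas4, without control reads, could not have changed direction. It did not pass the filter of 5 CPM and was not tested there. None of them was called without a filter (limma adjusted p from 0.0884 in Arc to 0.109 in Dusp22), limma-voom on recovered reads called 5 (Arc, Ccn1, Ddit4, Spry1 and Trib1), and upper-quartile scaling called Arc and Rgs2. The pseudocount of 0.1 RPKM lost Dusp22, and the replicate block lost Rgs2, Ddit4 and Dusp22 (limma adjusted p of 0.0742, 0.0555 and 0.0626). With 1 library left out none was called, except Ccn1 without control replicate 2 after median-ratio scaling. The heat shock motif with another GAA was found in 1 promoter in place of 6.

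Estimates that changed sign belonged to genes not called. After median-ratio scaling these were −0.42 for Fosb, −0.54 for Jun, −0.48 for Dusp1, −0.49 for Dusp6, −0.50 for Mafk, −0.52 for Ier2, −0.44 for Ier3, −0.28 for Btg1, −0.46 for Zfp36l1, −0.42 for Zfp36l2, −0.35 for Dnajb1 and −0.058 for Gadd45g. Upper-quartile scaling gave −0.46 for Fosb, −0.58 for Jun, −0.52 for Dusp1, −0.53 for Dusp6, −0.53 for Mafk, −0.55 for Ier2, −0.47 for Ier3, −0.31 for Btg1, −0.50 for Zfp36l1, −0.45 for Zfp36l2, −0.38 for Dnajb1, −0.093 for Gadd45g, −0.028 for Sgk1 and −0.0088 for Cd69. In limma-voom with median-ratio scaling they were −0.42 for Fosb, −0.55 for Jun, −0.49 for Dusp1, −0.49 for Dusp6, −0.50 for Mafk, −0.52 for Ier2, −0.52 for Ier3, −0.29 for Btg1, −0.46 for Zfp36l1, −0.43 for Zfp36l2, −0.35 for Dnajb1, −0.061 for Gadd45g and −0.0067 for Sgk1. The replicate block with median-ratio scaling gave −0.42 for Fosb, −0.54 for Jun, −0.48 for Dusp1, −0.49 for Dusp6, −0.50 for Mafk, −0.52 for Ier2, −0.44 for Ier3, −0.28 for Btg1, −0.46 for Zfp36l1, −0.42 for Zfp36l2, −0.35 for Dnajb1 and −0.058 for Gadd45g. With 1 library left out, on either scale, estimates that changed sign ranged from −1.0 to 0.29 for Fos, −0.72 to 0.53 for Fosb, −0.71 to 0.30 for Jun, −0.74 to 0.16 for Jund, −1.15 to 0.86 for Dusp1, −0.18 to 1.13 for Dusp4, −0.90 to 0.40 for Dusp6, −1.05 to 0.24 for Dusp10, −0.76 to 0.27 for Mafk, −0.57 to 0.21 for Ier2, −0.91 to 0.64 for Ier3, −1.0 to 0.20 for Ier5, −0.54 to 0.49 for Btg1, −0.66 to 0.41 for Zfp36l1, −0.89 to 0.52 for Zfp36l2, −1.14 to 0.025 for Hspa1b, −0.38 to 0.34 for Dnajb1, −0.83 to 1.5 for Hsph1, −0.0070 to 0.73 for Gadd45a, −1.42 to 0.027 for Gadd45b, −0.27 to 0.82 for Gadd45g, −0.11 to 0.67 for Sgk1, −0.35 to 1.08 for Cd69 and −2.44 to 0.22 for Ptgs2. Other uncalled estimates kept their sign but moved by over 1.5 times on the deposited scale, from −1.28 to −0.48 for Fosl2, −0.90 to −0.16 for Nr4a1, −0.35 to −0.13 for Nr4a2, −1.33 to −0.10 for Klf4, −1.92 to −0.88 for Atf3, 0.50 to 1.01 for Srf, −0.84 to −0.31 for Maff, −0.80 to −0.11 for Per1, −0.92 to −0.020 for Btg2, −0.31 to −0.13 for Hspa1a, −0.59 to −0.30 for Hspa8 and −0.46 to −0.0017 for Ppp1r15a.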
